A study of Danio rerio with 2 samples.

Results

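The genes described here are the homeobox and paired-box transcription factors that lay out the brain and the eye, read in zebrafish embryos that had received a morpholino against the C1q-like gene. They were taken by name, as every gene whose symbol on the array starts with otx, otp, pax, dlx, lhx, emx, eng, nkx, irx, isl, vsx, rx or the stem of six3a, followed by a digit or by a or b. This gave 67 genes read by 81 probe sets, of 8793 genes with a single symbol and 15502 probe sets in all. No gene whose symbol starts with eng was among the named rows used here. The pattern also took paxbp1, the gene of a protein that binds Pax factors in mouse and has no homeobox. It is counted below, and counts without it are given where they matter.

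The samples were whole embryos at 24 hours after fertilization. The first group was injected with the DrC1q-like morpholino (C1q-like MO), an antisense oligomer designed to block 1 transcript. The second group was injected with a control morpholino that differs from it by 5 mismatches (control MO). Both received about 5 ng per embryo. With 1 array in each group there was no replicate check of any difference, and no test, p-value or standard error between the groups could be computed. No strain, genotype or number of embryos is given in the sources used here. A morpholino acts for a limited time, and the injected gene's own knock-down was not checked here. Hybridization and scanning took place on a separate day for each array, and an effect of the day cannot be told apart from one of the group.

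Homeobox genes of these families encode DNA-binding proteins that divide the early neural plate into regions and later give neurons and eye cells their identity. Otx factors mark the forebrain and midbrain, Rx, Six3, Six6 and Pax6 factors the eye field and retina, and Pax2, Pax5 and Pax8 the boundary between midbrain and hindbrain. Dlx, Nkx2 and Otp factors act in the ventral forebrain and hypothalamus, LIM factors (Isl, Lhx) in neuron types, and Iroquois factors (Irx) across the midbrain, hindbrain and other tissues. Several members act outside the neural tube, in placodes, pharyngeal arches or heart, and serve as a contrast within the same gene families.

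Signals are MAS5 values on a linear scale, 1 per probe set and array. A signal under 33.3, the median of all signals, was raised to that floor before a log2 ratio of C1q-like MO over control MO was taken, because low MAS5 signals are mostly background. A gene counted as measured when either array gave a signal at or above the floor, and where 1 signal lay under the floor the ratio is a bound. By this rule 36 of the 67 genes were measured and 31 lay under the floor on both arrays. The measured genes were dim, with a median signal of 50.1 with C1q-like MO and 62.7 with control MO, against 91.8 and 100.3 over all 5958 measured genes. In whole embryos, fewer cells of a type and less RNA per cell cannot be told apart.

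Of the 36 measured genes, 4 were at least 2-fold lower with C1q-like MO, which is 11.1% of them, against 4.1% of all measured genes. None was at least 2-fold higher, against 1.68% of all measured genes. Ratios below 1 were seen for 24 (66.7%, against 48.8% of all measured genes) and ratios above 1 for 11, against 50.9%, and six3a was equal on both arrays. Their median log2 ratio was -0.27, against 0.01 over all measured genes. Without paxbp1 the median was -0.24 over 35 genes, of which 23 were below a ratio of 1.

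These counts lean on genes that were measured on the control array alone. Of 11 members that reached the floor on 1 array only, 10 did so with control MO (90.9%, against 40.4% of all such genes), and each of those had to have a ratio below 1. The exception was six5, at 34.5 with C1q-like MO and 27.9 with control MO. Among the 25 members at or above the floor on both arrays, 14 had ratios below 1 and 10 above, or 56.0% below, a share near the 50.5% of all such genes. The median log2 ratio of these 25 was -0.20, against -0.01 over all such genes. At least 2-fold lower were 3 of these 25, against 4.26% of all such genes. The plot of signals by gene shows both kinds.

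**Figure D1:**
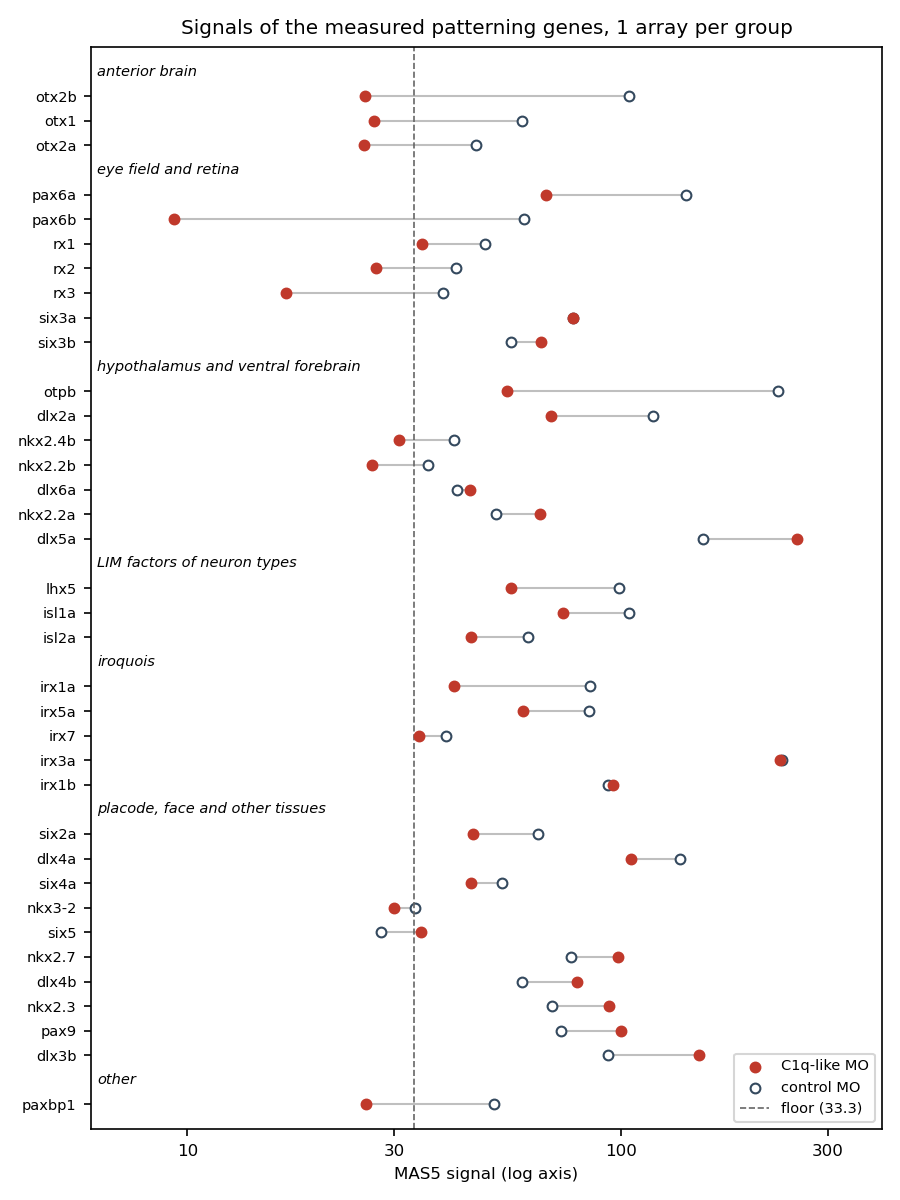
MAS5 signal (horizontal log axis) of each of the 36 measured genes on the C1q-like MO array (filled) and the control MO array (open), 1 array per group, ordered by class and by log2 ratio; the dashed line is the floor of 33.3. The 3 otx genes lie under the floor with C1q-like MO and above it with control MO, dlx3b and dlx5a lie the other way round from otpb, and the symbols of six3a coincide at 77.4.

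The otx genes, regulators of forebrain and midbrain identity, lay under the floor with C1q-like MO and above it with control MO in all 3 measured members. Each was thus measured through the control array alone, and a ratio below 1 follows from that. The signal of otx2b was 25.7 with C1q-like MO and 104.2 with control MO, at least 3.13-fold lower. Only 32 of the 5958 measured genes had a lower ratio. The related gene otx1 read 26.9 against 59.2 and otx2a read 25.6 against 46.3, with log2 ratios of -0.83 and -0.48 that are bounds. A second probe set of otx1 lay under the floor on both arrays, at 23.3 with C1q-like MO and 15.1 with control MO, so it gave no ratio. The pineal gene otx5 and the dorsal telencephalon genes emx1, emx2 and emx3 were not measured.

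Of the 13 genes of the eye field and retina, 7 were measured. Ratios below 1 were found for 5 of them (71.4%, against 48.8% of all measured genes). Of these 5, pax6b, rx2 and rx3 were above the floor with control MO alone. Among the 4 genes above it on both arrays 2 were below a ratio of 1, 1 was above and 1 was equal. The paired-box gene pax6a, needed for the lens and retina, read 67.2 with C1q-like MO and 141.2 with control MO and had a log2 ratio of -1.07. Its duplicate pax6b read 9.3 against 59.7, a bound of -0.84 on the log2 scale and -2.68 with no floor. The 3 retinal homeobox genes were dim on both arrays. The signal of rx1 was 34.8 with C1q-like MO and 48.6 with control MO, that of rx2 was 27.2 against 41.6, and that of rx3, which acts in the outgrowth of the optic vesicle, was 16.9 against 38.8. Their log2 ratios were -0.48, -0.32 and -0.22. With no floor the value for rx3 was -1.20.

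The anterior forebrain and eye genes six3a and six3b did not share this direction. The signal of six3a was 77.4 on both arrays, and six3b read 65.3 with C1q-like MO and 55.9 with control MO, a log2 ratio of 0.22. The eye genes six6a and six6b, the retinal genes six7 and vsx1, and lhx2a and lhx9 lay under the floor on both arrays. Of these, six6b had the widest gap, at 8.6 against 31.7, both too dim to give a ratio.

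Genes of the hypothalamus and ventral forebrain went both ways. The homeobox gene otpb, which specifies neuroendocrine and dopaminergic neurons of the hypothalamus, was 4.22-fold lower, with signals of 54.5 with C1q-like MO and 230.0 with control MO. Only 7 measured genes had a lower ratio, and both signals lay above the floor. The distal-less gene dlx2a, a regulator of inhibitory neurons of the ventral forebrain, read 68.9 against 118.4, a log2 ratio of -0.78. In contrast, dlx5a, of the same cells and of the pharyngeal arches, was the highest of all members, at 254.5 with C1q-like MO and 154.3 with control MO (1.65-fold higher).

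The remaining genes of this class lay closer to a ratio of 1 or were dim. The log2 ratio was 0.10 for dlx6a, the chromosomal neighbour of dlx5a (-0.02 after median centring), and 0.34 for nkx2.2a, a hedgehog-responsive gene of the ventral neural tube. It was -0.11 for nkx2.2b and -0.31 for the hypothalamic gene nkx2.4b, both under the floor with C1q-like MO. The genes dlx1a, dlx2b, nkx2.1 and lhx8a were not measured. Over the 5 genes of this class above the floor on both arrays, 2 had ratios below 1 and 3 above. That is 40.0% below, against 50.5% of all such genes.

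**Figure D2:**
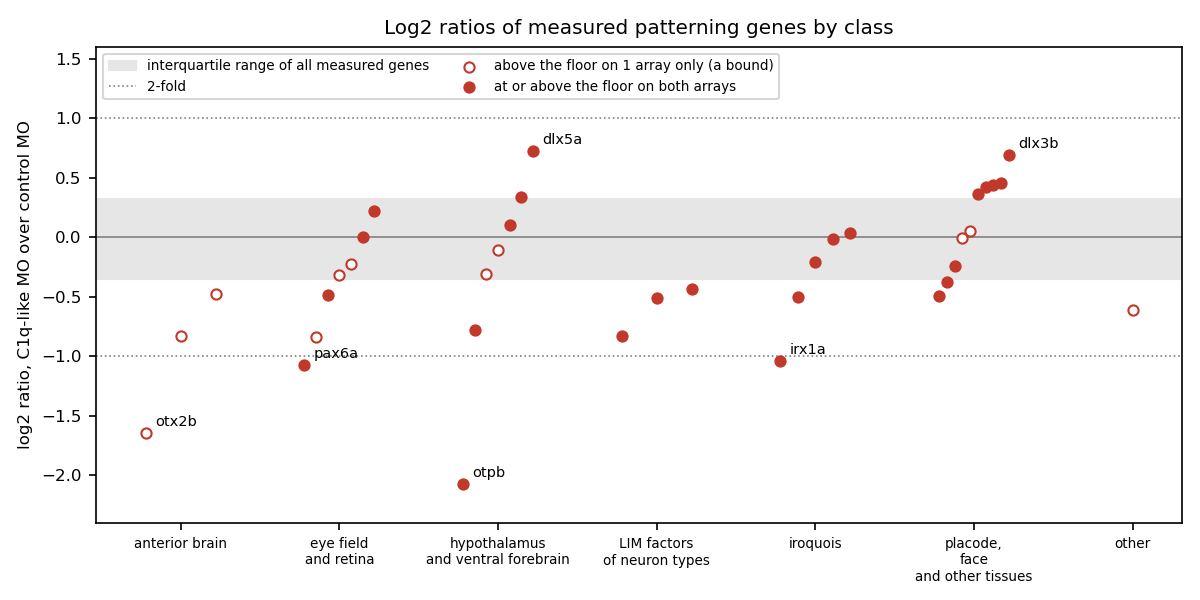
Log2 ratio of C1q-like MO over control MO (vertical axis) for each measured gene by class (horizontal axis); filled points were at or above the floor on both arrays and open points on 1 array only, the grey band is the interquartile range of all measured genes and the dotted lines mark 2-fold. The genes otpb, otx2b, pax6a and irx1a lie past 2-fold lower, none lies past 2-fold higher, and the placode and face class is centred at 0.21.

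The 3 LIM and 5 Iroquois genes that were measured were above the floor on both arrays. All 3 LIM genes and 4 of the 5 Iroquois genes had ratios below 1, against 50.5% of all genes on both arrays. No other class reached these shares among its genes on both arrays. Below 1 were 2 of 4 eye genes, 2 of 5 hypothalamus and ventral forebrain genes and 3 of 8 placode and face genes. The 4 lower Iroquois genes include irx3a, whose log2 ratio of -0.01 turned to 0.12 with quantile normalization and to 0.10 with lowess centring. Like irx3a, irx7 (-0.20) and isl2a (-0.44) lay within the SD between probe sets of 0.45 given below. The genes irx1a, irx1b, irx3a and isl1a had no value without probe sets that share probes. Among the LIM genes, lhx5, a forebrain gene, read 55.7 with C1q-like MO and 99.1 with control MO (1.78-fold lower). The motor and sensory neuron gene isl1a read 73.5 against 104.4 and isl2a, of primary motor neurons and Rohon-Beard sensory neurons, read 45 against 60.9. Their log2 ratios were -0.51 and -0.44. A second probe set of isl1a lay under the floor, at 21.8 with C1q-like MO and 10.4 with control MO. The genes lhx1a, lhx1b and lhx3 were not measured.

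Among the Iroquois genes, irx1a was 2.06-fold lower, at 41.2 with C1q-like MO and 84.7 with control MO. The gene irx5a read 59.6 against 84.3, a log2 ratio of -0.50. The brightest, irx3a, was nearly equal at 233.2 with C1q-like MO and 235.2 with control MO, and irx1b was likewise close, at 95.7 against 93.5, with a log2 ratio of 0.03 (-0.08 after median centring). The midbrain and hindbrain gene irx7 read 34.3 against 39.5, close to the floor, and irx4a and irx4b were not measured.

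Genes that act in placodes, pharyngeal arches, heart and other tissues showed no shift to lower signals. Of 10 measured, 4 had ratios below 1 and 6 above, with a median log2 ratio of 0.21. The share below 1 was 40.0%, against 48.8% of all measured genes. The floor fixed the sign of nkx3-2 (below) and six5 (above). Of the 8 above the floor on both arrays 3 were below and 5 above, with a median of 0.39. That is 37.5% below, against 50.5% of all such genes. The otic and olfactory placode gene dlx3b read 151.3 with C1q-like MO and 93.5 with control MO (1.62-fold higher), and its neighbour dlx4b, which acts with it, read 79.3 against 59.2, a log2 ratio of 0.42. The pharyngeal pouch gene pax9, a paired-box gene with no homeobox, read 100.3 against 72.9, nkx2.3 of the pharyngeal endoderm read 94.0 against 69.2, and the heart and pharynx gene nkx2.7 read 98.5 against 76.7. These 3 had log2 ratios of 0.46, 0.44 and 0.36.

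Lower in the same class were six2a, at 45.7 with C1q-like MO and 64.4 with control MO, and dlx4a, at 105.5 against 136.6, with log2 ratios of -0.49 and -0.37. The value of six4a was -0.24. The gene nkx3-2, of the jaw joint, lay at the floor, with a log2 ratio of -0.01, and pax1b, six4b and the heart gene nkx2.5 were not measured. The neural classes were all but the placode and face class, without paxbp1, six9 and nkx2.9, which no class took. They were set with earlier results of these data known. Among them are the Iroquois genes, which also act in other tissues, and dlx5a, which is also of the pharyngeal arches. Over the 25 measured genes of the neural classes the median was -0.44, with 19 below and 5 above a ratio of 1. The share below 1 was 76.0%, against 48.8% of all measured genes. Of these 25 genes 8 were above the floor with control MO alone. Of the other 17, above it on both arrays, 11 were below and 5 above (64.7% below, against 50.5% of all such genes). Whether the neural and non-neural classes differ was not tested, since 1 array per group allows no test.

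Some classes had no measured member. None of the 4 boundary genes of the midbrain and hindbrain (pax2a, pax2b, pax5, pax8) reached the floor, nor did any of the 3 genes of the dorsoventral neural tube (pax3a, pax7a, nkx1.2la), nor six9 and nkx2.9. The 31 genes under the floor ranged up to 30.6 with C1q-like MO and 32.1 with control MO, with medians of 14.3 and 16.8. A lower or higher level of these genes was not detectable at this signal. The last measured gene, paxbp1, read 25.8 with C1q-like MO and 50.9 with control MO, a log2 ratio of -0.61 that is a bound.

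The zebrafish keeps duplicate copies, called a and b, of many of these genes, and both copies were measured in 6 cases. In 3 of these, both copies were above the floor on both arrays and can be compared. For irx1 the copies differed by -1.07 (a minus b), with irx1a lower and irx1b at 0.03. For dlx4 they lay on opposite sides of a ratio of 1, at -0.37 for dlx4a and 0.42 for dlx4b, a difference of -0.79. For six3 the difference was -0.22. In the other 3 cases at least 1 copy was above the floor with control MO alone, so its ratio is a bound below 1 and no gap is given. This holds for both copies of otx2, for pax6b (-0.84 as a bound and -2.68 with no floor, beside -1.07 for pax6a) and for nkx2.2b (-0.11 as a bound, beside 0.34 for nkx2.2a). The 3 gaps can be set against the difference between probe sets of 1 gene, with a median size of 0.36 on the log2 scale over 789 genes. From the same differences, the SD of a single probe set's ratio was 0.45, and a gap between copies spreads more widely than that. Both values come from probe sets read on the same arrays, after signals were raised to the floor. They therefore take in bounds and may be too small for dim genes. They cover error between probe sets, and neither error shared by a whole array nor variation between embryos.

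**Figure D3:**
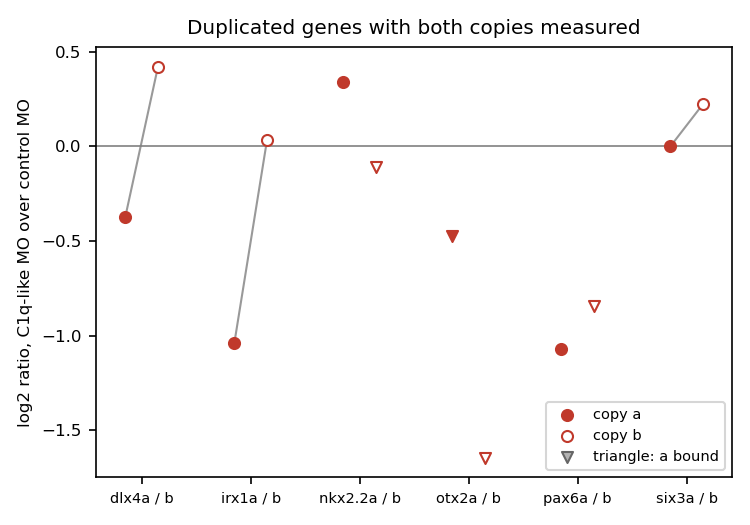
Log2 ratio of C1q-like MO over control MO (vertical axis) for the 6 duplicated genes with both copies measured, copy a filled and copy b open; triangles are bounds, from copies under the floor with C1q-like MO, and a line joins copies that were both above the floor on both arrays. The joined copies differ by -1.07 for irx1, -0.79 for dlx4 and -0.22 for six3 (a minus b).

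By that same SD, 14 of the 36 measured genes were lower by more than 0.45 (38.9%, against 20.0% of all measured genes), and 3 were higher by more than 0.45 (8.33%, against 16.9%). Of the 14 lower genes 5 were under the floor with C1q-like MO. The 3 higher ones were dlx5a, dlx3b and pax9. Measurement error could be looked at within few members, as 11 of the 67 had several probe sets and 1 of these, rx2, had several above the floor. The second probe set of rx2 read 8.5 with C1q-like MO and 52.6 with control MO, a bound of -0.66 on the log2 scale. Both probe sets of rx2 reached the floor with control MO alone, which fixes their direction, and with no floor they gave -0.61 and -2.63.

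In the gene order of the RefSeq assembly GRCz12tu, 16 pairs of members had at most 3 protein-coding genes between them. Both genes were measured in 5 of these pairs, each with none between. In the pair of dlx3b and dlx4b the log2 ratios were 0.69 and 0.42. In that of dlx5a and dlx6a they were 0.72 and 0.10, and the value of dlx6a was -0.02 after median centring. In the pair of irx3a and irx5a the log2 ratios were -0.01 and -0.50. In that of nkx2.2b and nkx2.4b both genes were above the floor with control MO alone, so both ratios had to be below 1. In the pair of six2a and six3a the log2 ratios were -0.49 and 0.

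Other genes of brain and eye patterning, from a list that holds none of the members, were read beside them. This list was chosen with earlier results of these data known and is no independent check. Of 55 on the array 31 were measured, 23 with ratios below 1 (74.2%, against 48.8% of all measured genes) and 8 above, and their median log2 ratio was -0.42. At least 2-fold lower were 5 (16.1%, against 4.1% of all measured genes), and none was at least 2-fold higher. The sign was fixed for 9 genes above the floor with control MO alone and for 5 with C1q-like MO alone, and of the 17 above it on both arrays 14 were below 1 (82.4%, against 50.5%). The lowest were dbx1a, a homeobox gene of interneuron progenitors, at 86.4 with C1q-like MO and 218.5 with control MO (2.53-fold lower), mab21l1, a gene of eye development, at 69.2 against 163.9, and pbx4, a cofactor of Hox proteins, at 103.8 against 241.1. The highest were fgf8a, a signal of the midbrain-hindbrain boundary, at 43.7 against 17.0, vax1 of the optic stalk, at 40.5 against 7.5, and foxb1a, at 44.7 against 39.7. For fgf8a and vax1 the control signal lay under the floor, so the log2 ratios of 0.39 and 0.28 are bounds.

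General markers of neural tissue were lower as well. The marker lists were chosen with earlier results of these data known, so their counts describe these arrays and are no independent check. Of 15 neural progenitor and neuron markers on the array 13 were measured, all on both arrays. Ratios below 1 were found for 12 (92.3%, against 50.5% of all genes on both arrays) and 8 were at least 2-fold lower (61.5%, against 4.26%). Their summed signal was 1947.2 with C1q-like MO and 4072.2 with control MO, and their median log2 ratio was -1.05, against -0.44 for the measured patterning genes of the neural classes. The neural markers ncam1a and nova2 were under the floor on both arrays. Of 12 epidermal markers 10 had ratios above 1, against 50.9% of all measured genes. Their summed signal was 41779.4 with C1q-like MO and 24069.5 with control MO, of which krt4 gave 17052.4 and 8631.3. Over all measured genes the summed signals were 2824397.1 and 2375345.0, so the sum was higher there too. The 12 skeletal muscle markers had a median log2 ratio of 0.13. The 5 notochord markers had a median of 0.29. Of these, 4 were above a ratio of 1, against 50.9% of all measured genes, and col2a1a was below, at -0.44. The 6 blood markers had a median of 0.23 but went both ways, from -1.01 for slc4a1a to 1.16 for gata1a. Of these 6, 2 were below a ratio of 1 and 4 above, against 48.8% and 50.9% of all measured genes. Markers of epidermis, skeletal muscle, notochord and blood were above the floor on both arrays, except myod1 of muscle and col8a1a of notochord. With control MO these read 25.9 and 16.4, under the floor, so their ratios had to be above 1. The part of a lower share of neural RNA in the values of the patterning genes was not tested.

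**Figure D4:**
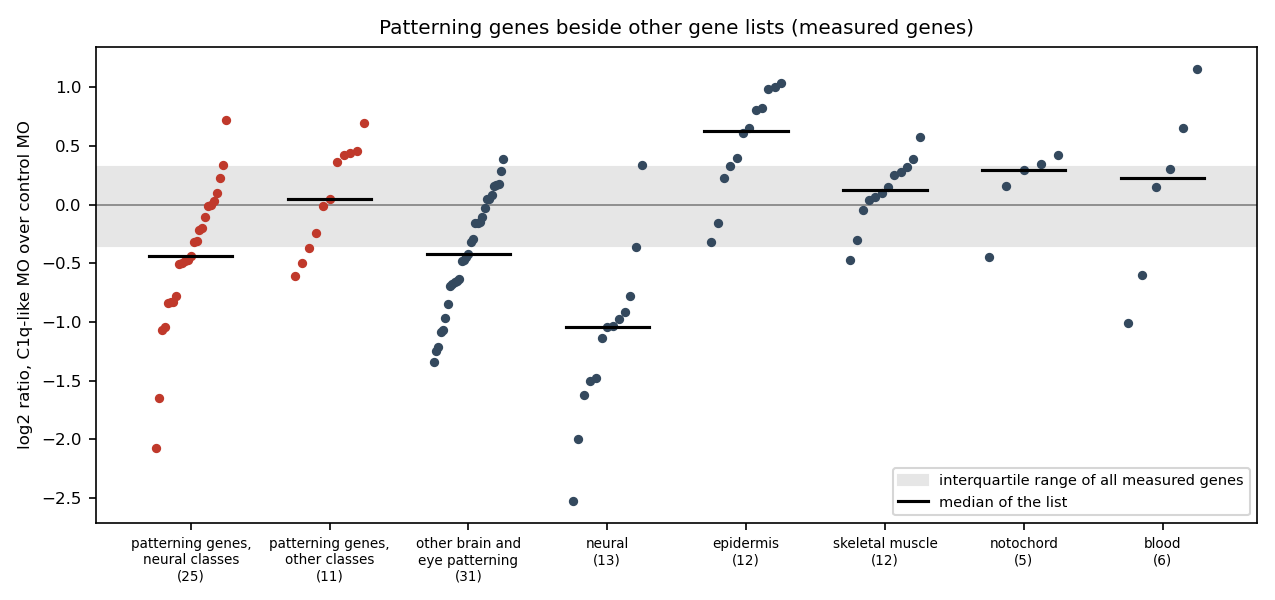
Log2 ratio of C1q-like MO over control MO (vertical axis) for measured genes of each list (horizontal axis, number of genes in brackets), with the median of each list as a bar and the interquartile range of all measured genes as a grey band. The neural markers are centred lowest, at -1.05, the patterning genes of the neural classes at -0.44 and the epidermal markers highest, at 0.63.

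The named values differed in how much they depended on the floor and the scaling. The log2 ratio of otpb stayed past 2-fold lower under all 8 other settings, between -2.19 and -1.30. That of otx2b did so under 7 of 8 and was -0.16 with the floor raised to the 75th percentile of signals, since its control signal lies just above that floor. The value of pax6a was past 2-fold under 4 of 7 settings that gave a value, between -1.19 and -0.60, and that of irx1a under 5 of 6, between -1.16 and -0.99. Both of these are read through probe sets that match several transcripts of their gene, so no value was left without such probe sets. The higher values of dlx5a and dlx3b kept their sign under all 8 settings, at 0.61 to 0.88 and 0.58 to 0.86. Some settings could not change a value. With a single probe set and both signals above the floor, a lower floor or none repeats the reported value. So does another reading of the gene, where it gives a value. This holds for otpb, pax6a, irx1a, dlx5a and dlx3b. For dlx5a and dlx3b the higher floor repeats it too, so only the scalings could move them.

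**Figure D5:**
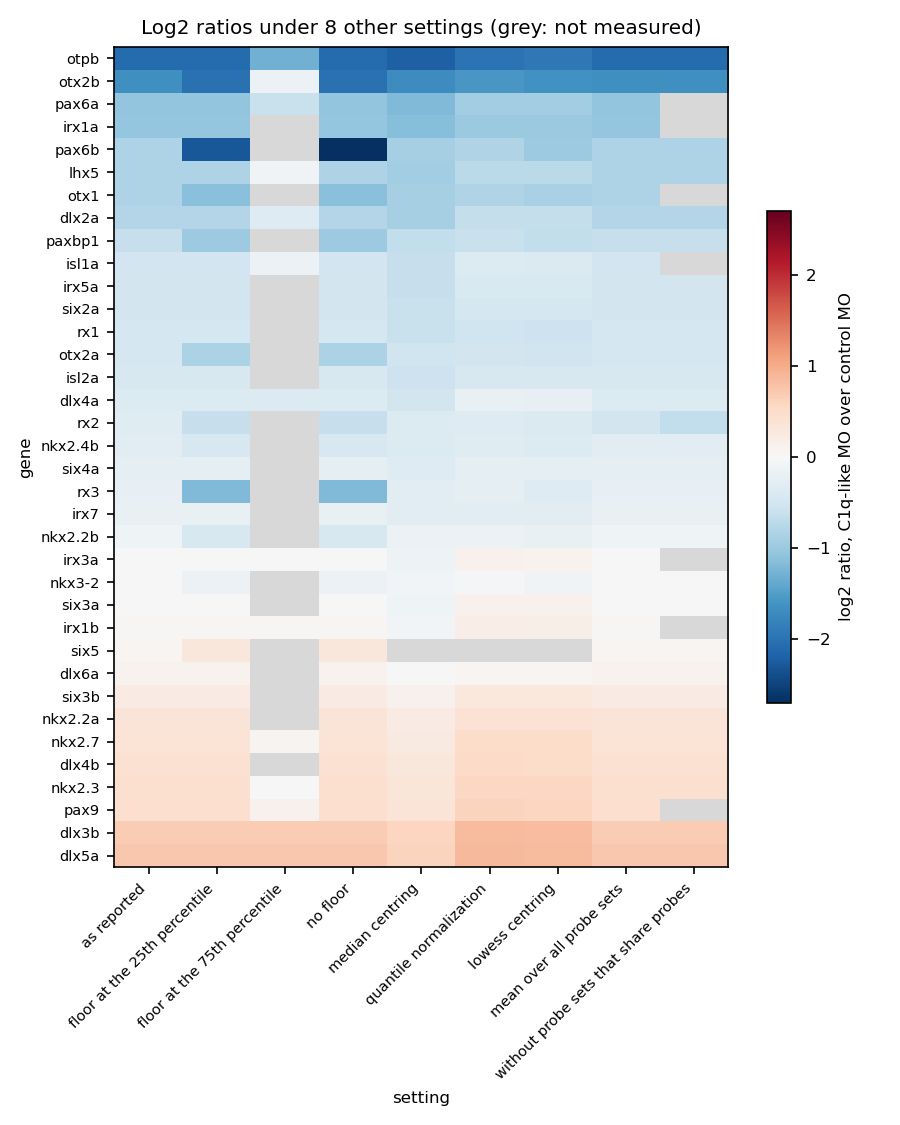
Log2 ratio of C1q-like MO over control MO (colour, blue for lower and red for higher with C1q-like MO) of each measured gene (rows) as reported and under 8 other settings (columns); grey cells were not measured under that setting. The top row, otpb, stays below -1 throughout, pax6b and rx3 deepen to -2.68 and -1.20 with no floor, and the bottom rows, dlx3b and dlx5a, stay above 0.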

How the data were processed

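Biotin-labelled RNA of whole embryos was hybridized to Affymetrix zebrafish arrays, per the labels' protocols. The authors deposited a signal intensity for each probe set, which the submitters' processing notes credit to MAS5. For MAS5, neither version nor scaling target was found in the labels or files. The mean without the top and bottom 2% was 98.8 with C1q-like MO and 99.4 with control MO. The deposited scanner and fluidics settings differed in 2 of 42, the days of hybridization and scanning.

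Genes were named from the platform annotation, in which 10795 probe sets named 1 gene, 135 several and 4572 none; all 67 members were found by Entrez number in the RefSeq table. Each gene was read through its probe set of highest mean log2 signal. The members, classes and lists were chosen with earlier results of these data known. Members past 2-fold, the 3 highest, those with several probe sets and both copies of duplicates were named in full. Alternatives were 8 planned settings (other floors, scalings and readings of a gene) and 2 added after the data were seen. The code was tested on simulated data. Python 3.11.15, numpy 2.4.6, pandas 2.3.3, scipy 1.17.1, statsmodels 0.14.6 and matplotlib 3.10.9 were used.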

Additional observations from a re-analysis of the deposited data

How the results depend on the processing

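The median log2 ratio of the measured genes was below 0 under all 10 alternatives, between -0.43 with no floor and -0.051 with the floor at the 75th percentile, and -0.27 as reported. With the floor at the 25th percentile 60 genes were measured, 37 of them below a ratio of 1 (46.6% of all measured genes were), 10 at least 2-fold lower (5.73%) and 2, emx1 and pax5, at least 2-fold higher (6.95%). With the floor at the 75th percentile 14 were measured, 8 below 1 (50.9% of all) and 1, otpb, at least 2-fold lower (3.05%). At least 2-fold lower were 7 of 36 with no floor (6.09% of all), 2 of 37 after lowess centring (3.21%) and 2 of 29 without probe sets that share probes (4.01%; otpb and otx2b in both), against 4 as reported. Of the genes on both arrays 14 were below 1. Median centring moved the median of all measured genes to -0.10 and that of the members to -0.36. Over all measured genes the lower ones made up 70.9% of those past 2-fold, against 45.2% with the lower floor, 50.5% with none, 84.8% after median centring, 57.7% after quantile normalization and 60.4% after lowess centring; higher ones numbered 100 as reported, 545 with the lower floor and 356 with none. Of the 24 genes below 1, 23 kept their sign under each of the 8 other floors, scalings and gene readings that gave a value, the exception being irx3a, and of the 11 above 1, 9 did, the exceptions being dlx6a and irx1b. Of 256 such values 8 moved by more than the SD between probe sets, all of them with another floor or none, and no gene past 2-fold changed sign. Many of the 256 values could not move, so these counts say little about how stable the ratios are. Averaging or leaving out probe sets changed the value of rx2 alone. A lower floor or none could change only genes under the reported floor on 1 array. Precision is limited by 1 array per group and by dim signals, as 5 of the 36 measured genes were above the 75th percentile on both arrays. No paired analysis was possible because each group has 1 array.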
